A study of Homo sapiens with 12 samples.

Results

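The genes described here are the heat shock and DNAJ chaperone genes, taken as every gene symbol in the count files that starts with HSPA, HSPB, HSPD, HSPE, HSPH, HSP90, DNAJA, DNAJB or DNAJC, without pseudogene and antisense symbols. The rule found 76 of 56832 genes. By textbook location 40 were taken as cytosolic or nuclear, 13 as residents of the endoplasmic reticulum (ER), 9 as mitochondrial and 14 as other or not assigned. RNA was sequenced from MDA-MB-468, an established human basal-like breast cancer cell line that carried either the vector pCDH-TRB, for stable expression of thyroid hormone receptor beta (TRB), or an empty vector (EV). The 4 groups were TRB cells given 10 nM T3, the active thyroid hormone, TRB cells given vehicle (NaOH), EV cells given 10 nM T3 and EV cells given vehicle, with 3 libraries each. All cells were first starved of hormone for 24 hours in phenol-red free medium with charcoal-stripped serum, and T3 or vehicle was then present for 24 hours. The sources used here do not say whether a line was a pool or a single clone, or whether replicates came from separate cultures. The p-values therefore measure the variation among these libraries, and that variation may be technical.

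Chaperones bind proteins that are unfolded or partly folded and keep them from aggregating. HSP70 proteins (the HSPA genes) do so in cycles of ATP hydrolysis that J-domain proteins (the DNAJ genes) start and HSP110-type exchange factors (HSPH1, HSPA4) reset, while HSP90 proteins act later on signalling kinases and nuclear receptors. Small heat shock proteins (the HSPB genes) hold unfolded proteins without ATP. In the cytosol many of these genes are induced by heat shock factor 1 through heat shock elements, whereas the unfolded protein response induces the ER set through ER stress elements, and mitochondria carry a set of their own.

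Counts assigned to genes ranged from 4241863 to 11955825 per library, and each T3 library was deeper than each vehicle library. THRB, the gene for TRB, was at 311 to 344 CPM (counts relative to library size, scaled by TMM factors) in TRB cells with T3, 136 to 144 CPM in TRB cells with vehicle, 37.7 to 39.9 CPM in EV cells with T3 and 42.6 to 44.2 CPM in EV cells with vehicle. The mitochondrial ribosomal RNA gene MT-RNR2 was at 477 to 768 CPM and 439 to 566 CPM in T3 libraries of TRB and EV cells, against 5257 to 13186.5 CPM and 2410 to 19303 CPM in their vehicle libraries. Whether depth plays a part in the results was not tested beyond thinning all libraries to the same depth. Thinning leaves the share of this RNA as it was, and whether this RNA plays a part was not tested. All 6 basal epithelial markers were detected (EGFR, KRT5, KRT6B, KRT14, KRT17 and CDH3). Their summed level was 4669 to 4848 CPM in TRB cells with T3, 5803 to 5833 CPM in TRB cells with vehicle, 6704 to 7269 CPM in EV cells with T3 and 7234 to 7541 CPM in EV cells with vehicle. Most of this sum was EGFR, at 4225 to 4354 CPM in TRB cells with T3 and 4348 to 4469 CPM with vehicle. KRT5 was at 197 to 242 CPM in TRB cells with T3 and 856 to 963 CPM with vehicle. KRT17 was at 108 to 130 CPM with T3 and 353 to 390 CPM with vehicle in these cells. KRT6B and KRT14 were also lower in every TRB T3 library than in every TRB vehicle library. CDH3 went the other way in TRB cells, at 104 to 108 CPM with T3 and 78.5 to 82.1 CPM with vehicle. The leukocyte marker CD14 stood at 181 to 194 CPM in TRB cells with T3, 17.5 to 21.7 CPM in TRB cells with vehicle, 49.7 to 52.2 CPM in EV cells with T3 and 28.03 to 32.7 CPM in EV cells with vehicle. The leukocyte markers PTPRC, CD3E and LYZ and the fibroblast markers COL1A2, DCN, LUM and PDGFRB were at or near 0, and COL1A1 was at 14.6 to 21.1 CPM.

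The chaperone genes together made up about 1% of all counts, and T3 left that share within the spread of the libraries. Their summed share was 1.05, 1.05 and 1.02% of the counts assigned to genes in TRB cells with T3, 1.06, 1.06 and 1.02% in TRB cells with vehicle, 1.1, 1.17 and 1.19% in EV cells with T3 and 1.1, 1.14 and 1.12% in EV cells with vehicle. Every TRB library was thus below every EV library, while T3 and vehicle libraries of the same cells overlapped. The constitutive HSP70 gene HSPA8 gave 18.9% of the chaperone counts over all libraries, and the cytosolic HSP90 genes HSP90AB1 and HSP90AA1 gave 15.5% and 14.7%. Per kilobase of exon the order over all groups began with HSP90AB1 at 568 CPM per kb, HSPA8 at 427, HSP90AA1 at 306, the ER HSP90 gene HSP90B1 at 145, the small heat shock gene HSPB1 at 135, the mitochondrial chaperonin gene HSPD1 at 121 and the ER HSP70 gene HSPA5 at 98.9. The place of HSPB1 in this order differed between groups. On this scale it was the 10th of the 59 tested members with an exon length in TRB cells with T3 at 51.6 CPM per kb, and the 4th in TRB cells with vehicle at 155; in EV cells it stood at 156 CPM per kb with T3 and 177 with vehicle.

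**Figure D1:**
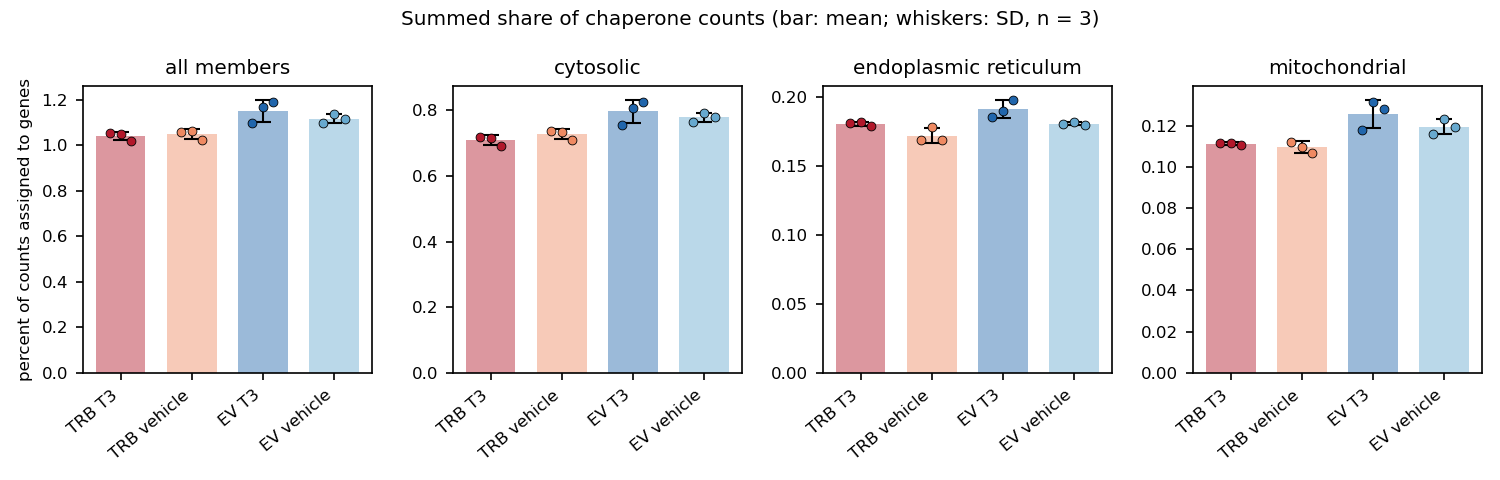
Summed counts of the chaperone genes as a percent of all counts assigned to genes (y axis, from 0), for all 76 members and by compartment; points are libraries, bars the group mean and whiskers the SD (n = 3). For all members the TRB libraries lie between 1.02% and 1.06% and the EV libraries between 1.10% and 1.19%.

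The first question was what T3 did to these genes where the receptor was supplied. Of the 76 members 60 passed the filter on low counts and were tested. With T3 in TRB cells 19 rose and 9 fell (edgeR adjusted p below 0.05, the threshold for a call throughout). The members called, 46.7% of those tested, stood close to the background, since 44.4% of all 14549 genes tested were called (22.4% higher and 21.9% lower). The median log2 fold change was 0.040 over the members and -0.0017 over all genes. At 1.5-fold or more 4 members were called, against 13.3% of all genes. By compartment 10 rose and 7 fell of 30 cytosolic members, 5 rose and 1 fell of 13 in the ER, 3 rose and 1 fell of 9 in mitochondria, and 1 rose of 8 others. Cytosolic members held all 4 of the larger changes (HSPB1, HSPA2, DNAJA4 and DNAJC12), and the ER members that were called moved by at most 1.44-fold. These 4 of 30 cytosolic members stand beside the 13.3% of all genes. The calls of DNAJA4 and DNAJC12 were lost under 1 and 6 alternative ways of processing the data, as given below.

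**Figure D2:**
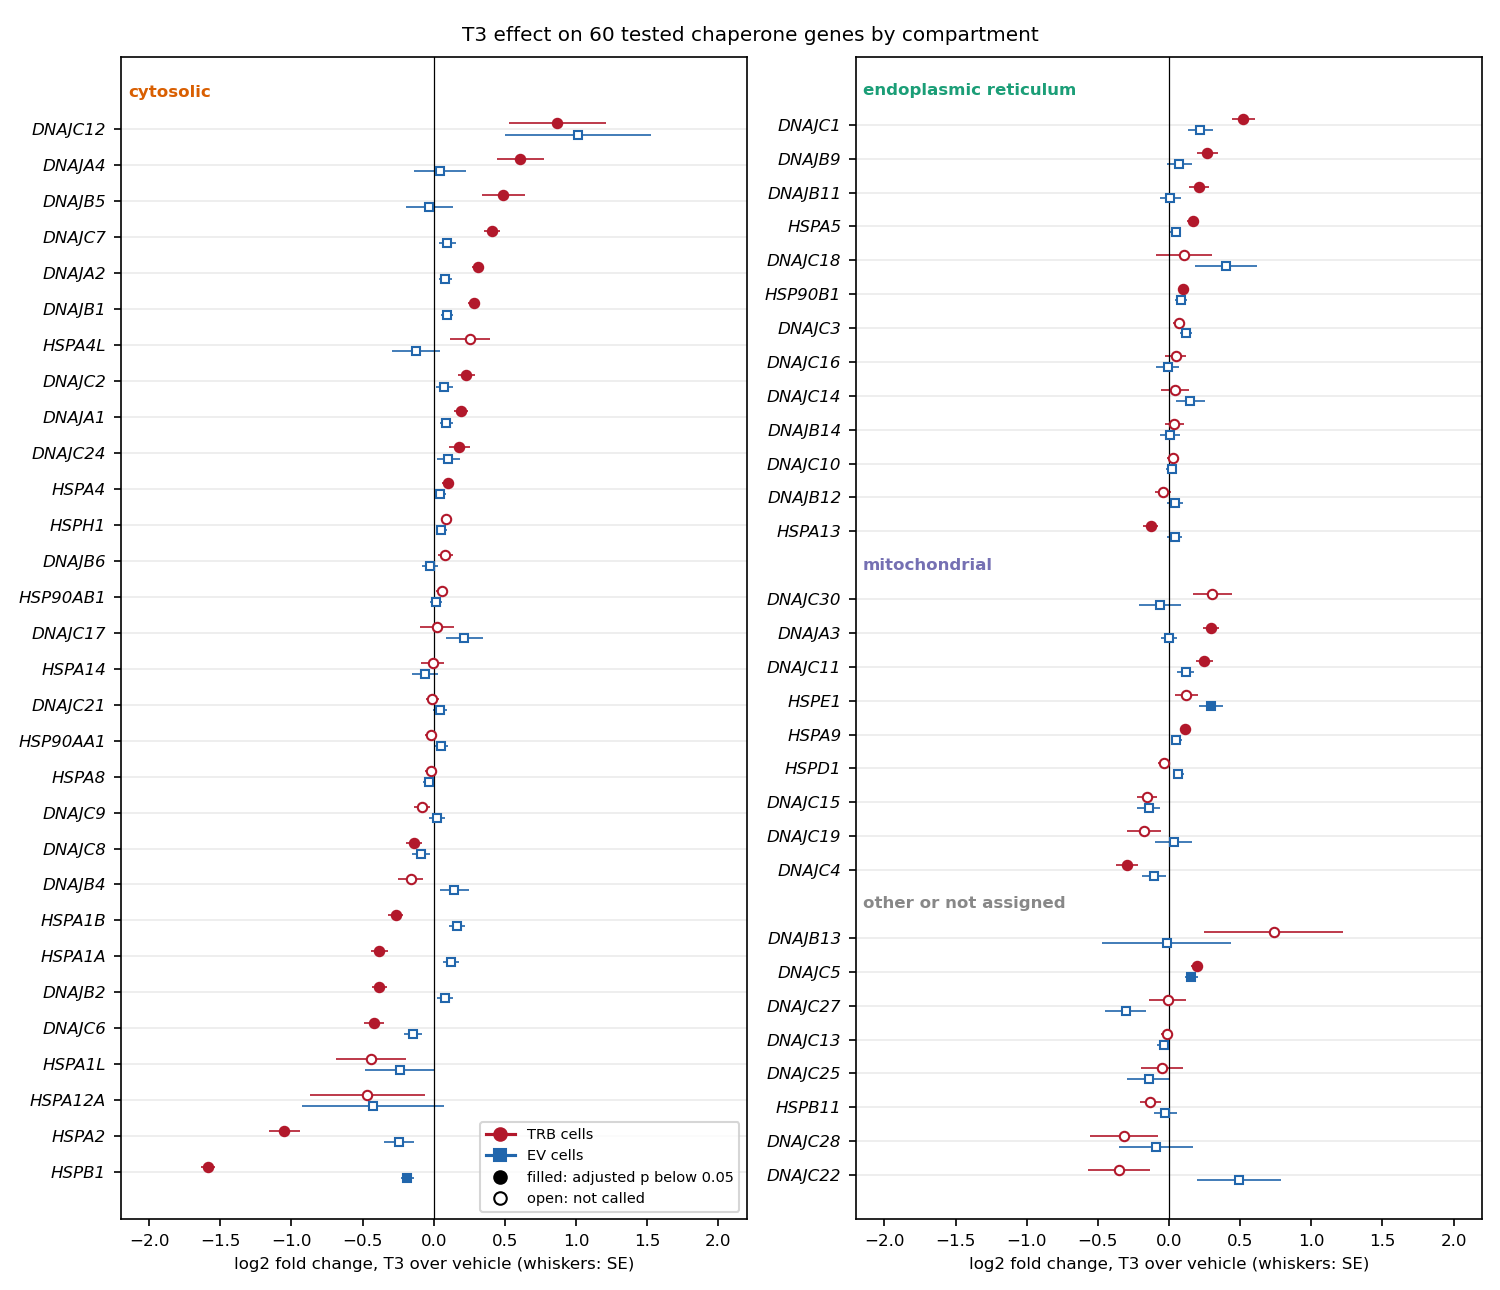
Log2 fold change of T3 over vehicle (x axis, whiskers are SE) for the 60 tested members by compartment, in TRB cells (red circles) and EV cells (blue squares), filled where the edgeR adjusted p was below 0.05. HSPB1 and HSPA2 lie furthest left in TRB cells at -1.59 and -1.05, most ER members lie between 0 and 0.52, and 3 members are filled in EV cells.

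The largest falls with T3 in TRB cells were those of HSPB1 and HSPA2, and HSPA1A and HSPA1B fell less. HSPB1 encodes HSP27, a small heat shock protein that holds unfolded proteins, and lies at chr7:76302544-76304295 (GENCODE, GRCh38). It had 88.3, 90.0 and 74.6 CPM in TRB cells with T3, 269, 257 and 234 CPM in TRB cells with vehicle, 254, 258 and 252 CPM in EV cells with T3 and 291, 294 and 284 CPM in EV cells with vehicle. The TRB libraries with T3 were all far below the other 9, which lay between 234 and 294 CPM. HSPB1 fell 3.005-fold with T3 in TRB cells (log2 fold change -1.59 ± 0.050 (SE), edgeR adjusted p = 4.64e-30), the smallest p of any member. In EV cells it fell 1.14-fold (log2 fold change -0.19 ± 0.046 (SE), edgeR adjusted p = 0.00925), without overlap between T3 and vehicle libraries. That call in EV cells was lost on leaving out EV vehicle replicate 1 (adjusted p = 0.0516, edgeR). Thinning to equal depth ended it too (adjusted p = 0.0658, edgeR).

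HSPA1A and HSPA1B, the neighbouring and near-identical genes for inducible HSP70, also fell in TRB cells. HSPA1A had 61.8, 56.3 and 61.1 CPM in TRB cells with T3, 77.7, 74.0 and 82.4 CPM in TRB cells with vehicle, 79.2, 93.1 and 92.2 CPM in EV cells with T3 and 78.7, 84.0 and 80.6 CPM in EV cells with vehicle. HSPA1B had 65.5, 65.7 and 65.0 CPM in TRB cells with T3, 80.0, 73.6 and 83.3 CPM in TRB cells with vehicle, 89.6, 99.3 and 102 CPM in EV cells with T3 and 84.7, 85.0 and 89.7 CPM in EV cells with vehicle. For each gene the TRB libraries with T3 were the lowest 3 of 12 and did not overlap any other group. With T3 in TRB cells HSPA1A fell by 0.38 ± 0.058 (log2, SE; edgeR adjusted p = 8.91e-08) and HSPA1B fell by 0.27 ± 0.055 (edgeR adjusted p = 3.88e-05). In EV cells neither was called, with log2 fold changes of 0.12 (edgeR adjusted p = 0.283) and 0.16 (edgeR adjusted p = 0.0704). Reads that match both genes may be split or dropped by the counting, so each level is uncertain. Their summed level was 125 ± 2.73 CPM in TRB cells with T3, 157 ± 9.08 CPM in TRB cells with vehicle, 185 ± 14.1 CPM in EV cells with T3 and 168 ± 3.68 CPM in EV cells with vehicle (SD, n = 3 each). HSPA1B also overlaps AL671762.1 on the same strand over 36.5% of its exons.

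HSPA2, an HSP70 gene best known from the testis, fell as well. It had 10.7, 10.1 and 8.38 CPM in TRB cells with T3, 17.6, 21.5 and 21.2 CPM in TRB cells with vehicle, 17.6, 16.4 and 16.1 CPM in EV cells with T3 and 18.8, 20.7 and 19.6 CPM in EV cells with vehicle. The TRB libraries with T3 again lay below all others, at a lower level than TRB cells with vehicle (2.07-fold lower, log2 fold change -1.05 ± 0.11 (SE), edgeR adjusted p = 5.01e-13). In EV cells the log2 fold change was -0.25 ± 0.11 (edgeR adjusted p = 0.202), not called. By contrast HSPA8, the constitutive HSP70, was not called, with 2097, 2084 and 1943 CPM in TRB cells with T3, 2118, 2075 and 2023 CPM in TRB cells with vehicle, 1984, 2073 and 2121 CPM in EV cells with T3 and 2135, 2058 and 2118 CPM in EV cells with vehicle. The groups overlapped, and the 95% interval of its log2 fold change was -0.11 to 0.062 with T3 in TRB cells and -0.11 to 0.053 in EV cells.

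The 250 bases before the RefSeq start (GRCh38.p14) of HSPB1, HSPA1A, HSPA1B and HSPA2, the 4 cytosolic HSPA and HSPB genes that fell, and of HSPA8, which was not called, are shown 5′ to 3′ to set the members that fell beside a constitutive one. Capitals mark each match to the heat shock element core, GAANNTTC or TTCNNGAA, on either strand, with N any base. The windows are chr7:76302423-76302672 (plus strand), chr6:31815293-31815542 (plus strand), chr6:31827488-31827737 (plus strand), chr14:64540491-64540740 (plus strand) and chr11:123062137-123062386 (minus strand).
HSPB1: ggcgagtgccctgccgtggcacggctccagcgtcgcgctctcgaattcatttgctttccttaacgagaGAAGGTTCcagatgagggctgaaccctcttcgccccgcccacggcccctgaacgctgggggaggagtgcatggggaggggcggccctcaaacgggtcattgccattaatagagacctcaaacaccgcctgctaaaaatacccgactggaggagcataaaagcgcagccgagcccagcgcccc
HSPA1A: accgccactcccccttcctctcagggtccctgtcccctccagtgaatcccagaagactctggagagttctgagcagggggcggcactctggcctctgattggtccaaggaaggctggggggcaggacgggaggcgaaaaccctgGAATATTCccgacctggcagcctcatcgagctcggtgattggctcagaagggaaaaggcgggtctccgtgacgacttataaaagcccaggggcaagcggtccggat
HSPA1B: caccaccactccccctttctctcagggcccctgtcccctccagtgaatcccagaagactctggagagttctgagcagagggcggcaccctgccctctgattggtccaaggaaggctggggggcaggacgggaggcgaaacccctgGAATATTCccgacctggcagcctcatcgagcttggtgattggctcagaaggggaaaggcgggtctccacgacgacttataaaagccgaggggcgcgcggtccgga
HSPA2: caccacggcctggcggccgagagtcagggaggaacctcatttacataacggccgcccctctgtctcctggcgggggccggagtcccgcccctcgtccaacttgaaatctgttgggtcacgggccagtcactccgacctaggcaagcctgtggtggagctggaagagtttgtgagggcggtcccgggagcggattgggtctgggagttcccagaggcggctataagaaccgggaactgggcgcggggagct
HSPA8: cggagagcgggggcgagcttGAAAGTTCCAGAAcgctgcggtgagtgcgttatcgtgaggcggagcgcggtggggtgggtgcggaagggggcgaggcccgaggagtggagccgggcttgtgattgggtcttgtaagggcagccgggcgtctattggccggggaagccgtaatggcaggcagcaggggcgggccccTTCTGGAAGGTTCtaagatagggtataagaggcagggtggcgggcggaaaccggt
HSPB1 held 1 match, whose first base lay at -182 from the start. HSPA1A and HSPA1B held 1 match each, of the same letters, at -106 and -105, and 277 of 301 aligned positions of their 300-base promoter windows were identical. HSPA2 held no match in this window. HSPA8 held 4 matches, which overlap in pairs and begin at -230, -225, -55 and -50. GENCODE places some starts elsewhere. The windows of HSPA2 and HSPA8 lie inside their GENCODE gene spans (chr14:64535905-64546173 and chr11:123057489-123063230). Those of HSPB1, HSPA1A and HSPA1B run past the GENCODE starts. No other start of these genes was searched.

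Over the 300-base windows (250 bases before and 50 after the start), 66 of the 76 members matched RefSeq, with 85 promoters. The heat shock core was found in 13.5% of all 35116 RefSeq promoters, in 20 of 49 promoters of cytosolic members (40.8%), in 3 of 13 of mitochondrial members and in 0 of 13 of ER members. Called and uncalled members occurred both with and without a match. Of 14 tested cytosolic genes with a match 3 rose, 4 fell and 7 were not called with T3 in TRB cells, and of 14 without a match 6 rose, 3 fell and 5 were not called. AGGTCA, the letters of a thyroid hormone receptor binding motif, occurred in 13.8% of all promoters and in 4 of the 85 member promoters, those of HSPA4L, HSPA5, DNAJB13 and DNAJC28.

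**Figure D3:**
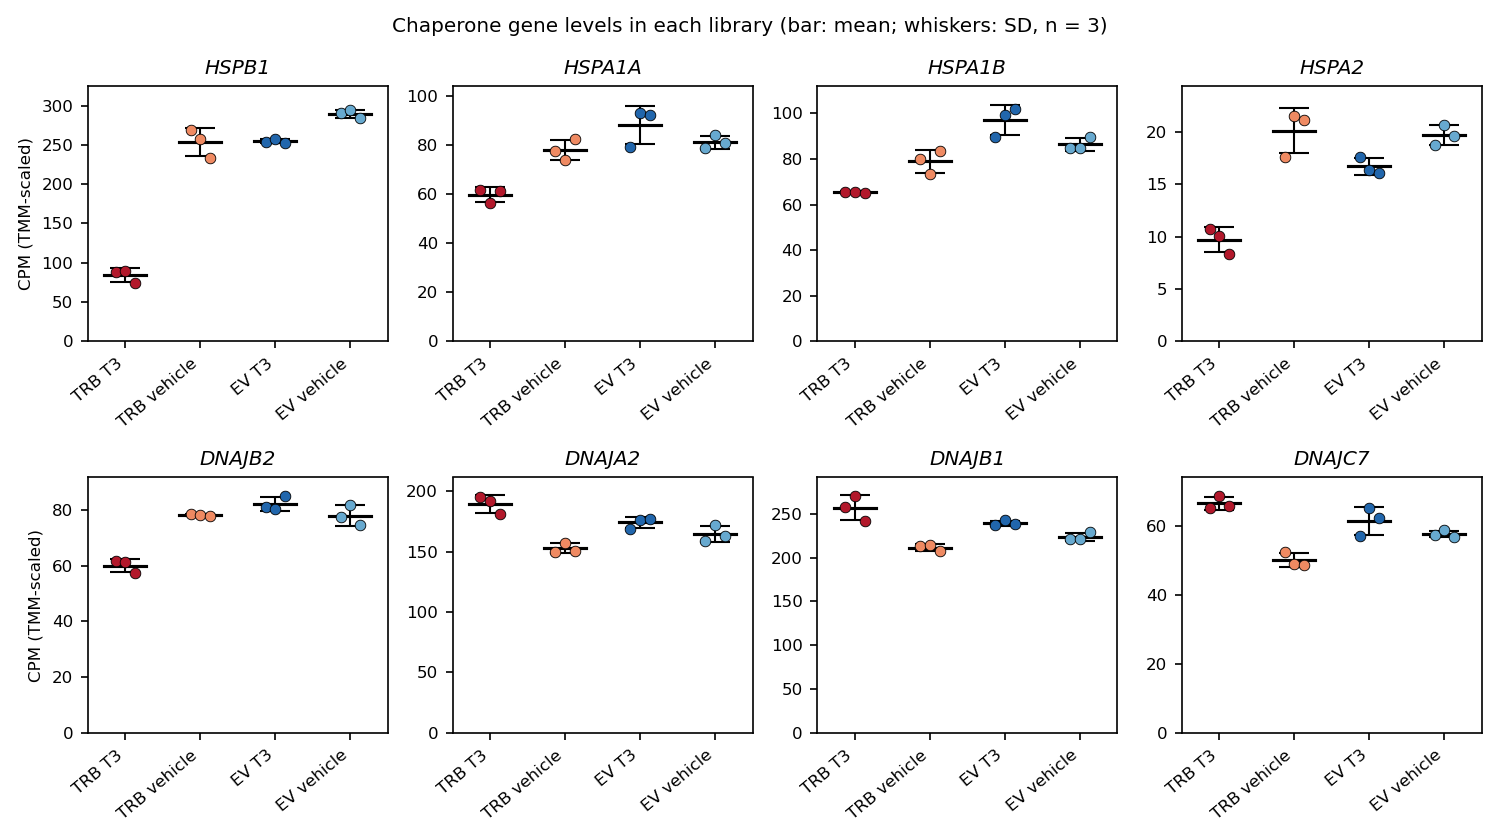
Level of 8 cytosolic chaperone genes in each library (y axis, TMM-scaled CPM, from 0), with points for libraries, a bar for the mean and whiskers for the SD (n = 3). In the 5 panels HSPB1, HSPA1A, HSPA1B, HSPA2 and DNAJB2 the TRB libraries with T3 are the lowest, and in DNAJA2 and, narrowly, DNAJC7 they are the highest.

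The abundant cytosolic HSP90 genes were not called with T3. HSP90AA1, the inducible form, had 1525, 1523 and 1464 CPM in TRB cells with T3, 1559, 1547 and 1465 CPM in TRB cells with vehicle, 1609.7, 1758 and 1825 CPM in EV cells with T3 and 1687, 1661 and 1655 CPM in EV cells with vehicle. HSP90AB1, the constitutive form, had 1652, 1601 and 1564 CPM in TRB cells with T3, 1546, 1568 and 1513 CPM in TRB cells with vehicle, 1718, 1836 and 1911 CPM in EV cells with T3 and 1781, 1814 and 1814 CPM in EV cells with vehicle. Both were lower in every TRB library than in every EV library. The 95% interval of the T3 log2 fold change in TRB cells was -0.10 to 0.067 for HSP90AA1 and -0.026 to 0.14 for HSP90AB1. The exchange factor gene HSPH1, which is also a heat shock target, had 226, 241 and 227 CPM in TRB cells with T3, 213, 223 and 216 CPM in TRB cells with vehicle, 217, 227 and 225 CPM in EV cells with T3 and 209, 225 and 209 CPM in EV cells with vehicle. Its log2 fold change with T3 in TRB cells was 0.089 ± 0.040 (edgeR adjusted p = 0.0635). Its relative HSPA4 had 293, 292 and 277 CPM in TRB cells with T3, 265, 277 and 263 CPM in TRB cells with vehicle, 284, 293 and 306 CPM in EV cells with T3 and 278, 300.02 and 277 CPM in EV cells with vehicle. It rose slightly in TRB cells (log2 fold change 0.098 ± 0.040 (SE), edgeR adjusted p = 0.0363). That call was lost under 6 alternatives, among them leaving out TRB T3 replicate 1 (edgeR adjusted p = 0.132) or 2 (edgeR adjusted p = 0.12) or TRB vehicle replicate 1 (edgeR adjusted p = 0.0973) or 3 (edgeR adjusted p = 0.12).

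Of 17 tested cytosolic J-domain genes, whose proteins work with HSP70, 9 rose and 3 fell with T3 in TRB cells, beside 22.4% of all genes called higher and 21.9% called lower. All 4 genes of the DNAJA family, 3 of them cytosolic, rose with T3 in TRB cells. DNAJA2 had 195, 192 and 181 CPM in TRB cells with T3, 149.98, 157 and 150.4 CPM in TRB cells with vehicle, 169, 177 and 177 CPM in EV cells with T3 and 159, 172 and 163 CPM in EV cells with vehicle. Its TRB libraries with T3 were above all others (log2 fold change 0.31 ± 0.043 (SE), edgeR adjusted p = 5.32e-09). DNAJA1 had 191, 183 and 167 CPM in TRB cells with T3, 156, 168 and 148 CPM in TRB cells with vehicle, 181, 193 and 201 CPM in EV cells with T3 and 176, 185 and 179.5 CPM in EV cells with vehicle. It rose by 0.19 ± 0.047 (log2, SE; edgeR adjusted p = 5.31e-04) although 1 vehicle library of TRB cells overlapped the T3 libraries. DNAJA4 rose 1.53-fold, at a low level (mean 7.67 ± 1.45 CPM with T3 and 4.99 ± 0.556 CPM with vehicle in TRB cells, SD, n = 3 each; log2 fold change 0.61 ± 0.17 (SE), edgeR adjusted p = 0.00186), a call lost after thinning (edgeR adjusted p = 0.149). DNAJB1, the heat-inducible HSP40 gene, had 258, 270.5 and 242 CPM in TRB cells with T3, 213, 214 and 207 CPM in TRB cells with vehicle, 237, 243 and 239 CPM in EV cells with T3 and 221, 221 and 229 CPM in EV cells with vehicle. It rose with T3 in TRB cells (log2 fold change 0.28 ± 0.040 (SE), edgeR adjusted p = 1.18e-08), the opposite direction to the heat-inducible HSPB1, HSPA1A and HSPA1B.

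DNAJC7, whose protein binds both HSP70 and HSP90, had 65.2, 68.6 and 65.6 CPM in TRB cells with T3, 52.4, 49.1 and 48.6 CPM in TRB cells with vehicle, 57.0, 65.1 and 62.3 CPM in EV cells with T3 and 57.3, 58.7 and 56.8 CPM in EV cells with vehicle. It rose in TRB cells (log2 fold change 0.41 ± 0.059 (SE), edgeR adjusted p = 1.76e-08), where the vehicle libraries were the lowest of all 12. DNAJB2, a ubiquitin-binding J protein gene, went the other way, with 61.5, 61.2 and 57.4 CPM in TRB cells with T3, 78.7, 78.3 and 77.7 CPM in TRB cells with vehicle, 81.2, 80.4 and 84.9 CPM in EV cells with T3 and 77.5, 81.9 and 74.5 CPM in EV cells with vehicle. The TRB libraries with T3 were the lowest 3, and the fall was 0.38 ± 0.054 on the log2 scale (SE; edgeR adjusted p = 8.83e-09). DNAJC6, the gene for auxilin, which uncoats clathrin vesicles, had 39.5, 36.9 and 35.6 CPM in TRB cells with T3, 53.1, 47.5 and 49.6 CPM in TRB cells with vehicle, 54.2, 50.7 and 59.5 CPM in EV cells with T3 and 57.5, 63.7 and 60.004 CPM in EV cells with vehicle. It fell in TRB cells (log2 fold change -0.42 ± 0.068 (SE), edgeR adjusted p = 3.28e-07). Of the other cytosolic J-domain genes DNAJB5 rose in TRB cells (log2 fold change 0.49 ± 0.15 (SE), edgeR adjusted p = 0.00563). So did DNAJC2, a ribosome-associated chaperone gene (log2 fold change 0.23 ± 0.058 (SE), edgeR adjusted p = 8.34e-04), and DNAJC24, which acts in diphthamide synthesis (log2 fold change 0.18 ± 0.074 (SE), edgeR adjusted p = 0.0426). DNAJC8 fell (log2 fold change -0.14 ± 0.058 (SE), edgeR adjusted p = 0.0431). The DNAJC2 call ended on thinning (edgeR adjusted p = 0.0759). The calls of DNAJC24 and DNAJC8 were each lost under 8 or more alternatives, and that of DNAJB5 without TRB vehicle replicate 2 (edgeR adjusted p = 0.0998). DNAJC12, a cofactor of aromatic amino acid hydroxylases, was near the detection limit with 1.63, 1.53 and 2.62 CPM in TRB cells with T3, 0.920, 1.12 and 1.09 CPM in TRB cells with vehicle, 0.675, 1.39 and 0.912 CPM in EV cells with T3 and 0.481, 0.470 and 0.510 CPM in EV cells with vehicle. Its rise in TRB cells (log2 fold change 0.87 ± 0.34 (SE), edgeR adjusted p = 0.0322) was lost under 6 alternatives. Without TRB T3 replicate 3, its highest library, the log2 fold change was 0.58 (edgeR adjusted p = 0.233), and without TRB vehicle replicates 1, 2 or 3 the edgeR adjusted p was 0.103, 0.0697 and 0.0632. In EV cells the log2 fold change of DNAJC12 was 1.01 ± 0.51 (SE, edgeR adjusted p = 0.318), not called. The effect in TRB cells minus that in EV cells was -0.14 ± 0.61 (edgeR adjusted p = 0.907), so no difference between the lines was called.

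In the ER 5 of the 13 tested members rose and 1 fell with T3 in TRB cells, beside 22.4% of all genes called higher and 21.9% called lower. DESeq2 called 4 higher and 0 lower. HSPA5 encodes BiP, the ER HSP70 and a marker of the unfolded protein response, and had 387, 408 and 384 CPM in TRB cells with T3, 338, 359 and 354 CPM in TRB cells with vehicle, 393, 415 and 415 CPM in EV cells with T3 and 404, 395 and 386 CPM in EV cells with vehicle. The TRB libraries with vehicle were below the other 9, and the T3 libraries of TRB cells overlapped those of EV cells (log2 fold change 0.17 ± 0.038 (SE), edgeR adjusted p = 2.45e-04). HSP90B1, the gene for GRP94, had 686, 660.4 and 659 CPM in TRB cells with T3, 607, 647 and 614 CPM in TRB cells with vehicle, 709, 732 and 776 CPM in EV cells with T3 and 718, 682 and 692 CPM in EV cells with vehicle. Its rise in TRB cells was small (log2 fold change 0.10 ± 0.041 (SE), edgeR adjusted p = 0.0356) and was lost under 5 alternatives, with an edgeR adjusted p of 0.155 and 0.0508 without TRB T3 replicates 1 and 2 and of 0.137 and 0.0976 without TRB vehicle replicates 1 and 3. Of the genes for J-domain cofactors of BiP, 3 are described here and DNAJC3 and DNAJC10, which were not called, after them. DNAJB9 (ERdj4) had 39.0, 41.6 and 39.6 CPM in TRB cells with T3, 31.2, 34.4 and 34.2 CPM in TRB cells with vehicle, 29.7, 29.1 and 32.3 CPM in EV cells with T3 and 35.4, 26.6 and 27.1 CPM in EV cells with vehicle. The TRB T3 libraries were above all others (log2 fold change 0.27 ± 0.074 (SE), edgeR adjusted p = 0.00209). DNAJB11 (ERdj3) had 38.8, 37.1 and 38.0 CPM in TRB cells with T3, 33.3, 33.5 and 31.7 CPM in TRB cells with vehicle, 34.7, 36.6 and 38.0 CPM in EV cells with T3 and 36.3, 36.0 and 36.4 CPM in EV cells with vehicle. It rose in TRB cells (log2 fold change 0.21 ± 0.070 (SE), edgeR adjusted p = 0.0111). Its adjusted p was 0.0508 with DESeq2 and 0.0865 with edgeR after thinning. DNAJC1 (ERdj1) rose 1.44-fold, at 38.4 ± 2.35 CPM with T3 and 26.8 ± 2.26 CPM with vehicle in TRB cells (SD, n = 3 each; log2 fold change 0.52 ± 0.080 (SE), edgeR adjusted p = 7.35e-08). In EV cells DNAJC1 was at 32.0 ± 2.86 CPM with T3 and 27.5 ± 3.03 CPM with vehicle. That change was not called (log2 fold change 0.22 ± 0.087 (SE), edgeR adjusted p = 0.152). Nor was the difference between the lines (0.30 ± 0.12, edgeR adjusted p = 0.0542).

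DNAJC3 (P58IPK), an inhibitor of the stress kinase PERK, had 174, 178 and 169 CPM in TRB cells with T3, 167, 172 and 156 CPM in TRB cells with vehicle, 167, 167 and 175 CPM in EV cells with T3 and 158, 155 and 156 CPM in EV cells with vehicle. It was not called in TRB cells (log2 fold change 0.068 ± 0.042 (SE), edgeR adjusted p = 0.195). DNAJC10, a disulfide reductase, had 240.01, 238 and 232 CPM in TRB cells with T3, 223, 238 and 236 CPM in TRB cells with vehicle, 213, 205 and 216 CPM in EV cells with T3 and 207, 211 and 208 CPM in EV cells with vehicle. The 95% interval of its T3 effect in TRB cells was -0.051 to 0.10 (log2). It was higher in each TRB library than in each EV library. HSPA13, a microsomal HSP70-like gene, was the single ER member that fell in TRB cells (log2 fold change -0.13 ± 0.053 (SE), edgeR adjusted p = 0.0385), and its libraries overlapped. That call was lost under 7 alternatives. The log2 fold change was -0.051 without TRB vehicle replicate 2 (edgeR adjusted p = 0.53), -0.13 without replicate 1 (0.0692), and -0.12 and -0.11 without TRB T3 replicates 1 and 3 (0.0974 and 0.115).

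The 250 bases before the RefSeq start of the 2 ER genes that hold an ER stress element are shown with that element in capitals, CCAAT followed after 9 other bases by CCACG, on either strand. The windows are chr9:125241344-125241593 (minus strand) and chr12:103930160-103930409 (plus strand) in GRCh38.p14.
HSPA5: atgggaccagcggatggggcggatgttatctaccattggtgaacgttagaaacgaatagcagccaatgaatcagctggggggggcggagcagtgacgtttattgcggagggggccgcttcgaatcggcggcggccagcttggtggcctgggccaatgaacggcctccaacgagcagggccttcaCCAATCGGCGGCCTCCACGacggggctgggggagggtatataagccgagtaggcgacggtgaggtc
HSP90B1: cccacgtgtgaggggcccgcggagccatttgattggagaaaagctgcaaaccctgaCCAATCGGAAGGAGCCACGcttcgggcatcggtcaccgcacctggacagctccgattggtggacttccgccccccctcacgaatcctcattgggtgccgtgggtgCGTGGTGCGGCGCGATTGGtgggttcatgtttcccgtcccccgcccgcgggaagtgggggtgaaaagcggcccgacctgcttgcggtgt
HSPA5 held 1 match beginning at -66, and HSP90B1 held 2, at -194 and -89, of which the one at -89 reads on the other strand. These were the 2 of 13 ER member promoters with a match, while 27 of all 35116 RefSeq promoters (0.077%) had it. The HSP90B1 window lies inside the GENCODE span of its gene, which begins at chr12:103930107.

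In mitochondria DNAJA3 (Tid1), the J partner of mitochondrial HSP70, had the smallest adjusted p. It had 73.6, 70.7 and 73.1 CPM in TRB cells with T3, 57.3, 60.5 and 59.0 CPM in TRB cells with vehicle, 68.2, 69.6 and 69.0 CPM in EV cells with T3 and 72.0, 65.9 and 69.4 CPM in EV cells with vehicle. The TRB vehicle libraries lay below the other 9, and T3 raised the gene in TRB cells (log2 fold change 0.30 ± 0.054 (SE), edgeR adjusted p = 4.75e-06). The mitochondrial HSP70 gene HSPA9 (mortalin) had 416, 426 and 409 CPM in TRB cells with T3, 392, 388 and 375 CPM in TRB cells with vehicle, 399, 444 and 433 CPM in EV cells with T3 and 402, 423 and 406 CPM in EV cells with vehicle. It rose by 0.12 ± 0.039 in TRB cells (log2, SE; edgeR adjusted p = 0.0117). That call was lost without TRB T3 replicate 2 (edgeR adjusted p = 0.0611) or TRB vehicle replicate 3 (0.061). The chaperonin gene HSPD1 (HSP60) had 467, 461 and 448 CPM in TRB cells with T3, 485, 471 and 456 CPM in TRB cells with vehicle, 528, 602 and 585 CPM in EV cells with T3 and 539, 557 and 543 CPM in EV cells with vehicle. The 95% interval of its log2 T3 effect in TRB cells was -0.12 to 0.043. Its partner HSPE1 (HSP10), which is divergently transcribed and overlaps it, had 38.4, 36.0 and 38.1 CPM in TRB cells with T3, 32.7, 38.3 and 32.0 CPM in TRB cells with vehicle, 38.7, 45.2 and 46.4 CPM in EV cells with T3 and 31.5, 41.3 and 32.9 CPM in EV cells with vehicle. The T3 and vehicle libraries of TRB cells overlapped (log2 fold change 0.12 ± 0.080 (SE), edgeR adjusted p = 0.229). DNAJC19, a subunit of the protein import motor, had 12.2, 12.8 and 10.9 CPM in TRB cells with T3, 13.9, 11.98 and 14.8 CPM in TRB cells with vehicle, 13.5, 10.4 and 12.2 CPM in EV cells with T3 and 13.7, 9.86 and 12.1 CPM in EV cells with vehicle. No call was made for it in TRB cells (log2 fold change -0.17 ± 0.12 (SE), edgeR adjusted p = 0.243). DNAJC11, which belongs to the inner membrane organising system, rose in TRB cells (log2 fold change 0.25 ± 0.058 (SE), edgeR adjusted p = 2.57e-04). DNAJC4 fell (log2 fold change -0.30 ± 0.079 (SE), edgeR adjusted p = 0.00146). Both calls were lost after thinning.

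Among the members outside these compartments DNAJC5, the gene for cysteine string protein of secretory vesicles, rose with T3 in both lines. It had 171, 169 and 162 CPM in TRB cells with T3, 149, 146 and 144 CPM in TRB cells with vehicle, 141, 149 and 149.7 CPM in EV cells with T3 and 136, 136 and 124 CPM in EV cells with vehicle. The log2 fold change was 0.20 ± 0.043 (SE) in TRB cells (edgeR adjusted p = 1.14e-04) and 0.16 ± 0.046 in EV cells (edgeR adjusted p = 0.0324). The EV call was lost without EV T3 replicate 2 (edgeR adjusted p = 0.128) or 3 (0.0856) or EV vehicle replicate 3 (0.441). HSPB11, which carries the HSPB stem but encodes an intraflagellar transport subunit, was not called in TRB cells (log2 fold change -0.13 ± 0.073 (SE), edgeR adjusted p = 0.136).

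In EV cells T3 moved few of these genes. Of 60 tested members 2 rose and 1 fell, and 4.54% of all 14549 genes were called (2.84% higher and 1.7% lower). None of the members called moved 1.5-fold, against 0.564% of all genes. The 3 were HSPB1, HSPE1 and DNAJC5. HSPE1 rose 1.23-fold (log2 fold change 0.30 ± 0.083 (SE), edgeR adjusted p = 0.024) with overlapping libraries, and that call was lost without EV T3 replicate 2 (edgeR adjusted p = 0.131) or 3 (0.112) or EV vehicle replicate 1 (0.157) or 3 (0.347). No ER member was called by edgeR, where 3 of 13 had an unadjusted p below 0.05, or by DESeq2. The median log2 fold change of the members was 0.044, against -0.00074 over all genes.

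Whether the T3 effect differed between the lines was tested as an interaction. The effect in TRB cells minus that in EV cells was called above 0 for 4 members and below 0 for 6, together 16.7% of those tested, against 23.9% of all 14549 genes. The 2 at 1.5-fold or more, HSPB1 and HSPA2, compare with 8.46% of all genes at that size. HSPB1 had the largest difference, -1.40 ± 0.068 (log2, SE; edgeR adjusted p = 5.28e-22). It was -0.80 ± 0.15 for HSPA2 (edgeR adjusted p = 1.98e-05), -0.50 ± 0.082 for HSPA1A (edgeR adjusted p = 1.11e-06) and -0.43 ± 0.077 for HSPA1B (edgeR adjusted p = 7.43e-06). DNAJB2 differed by -0.46 ± 0.076 (edgeR adjusted p = 1.35e-06) and DNAJC6 by -0.27 ± 0.094 (edgeR adjusted p = 0.0238). On the other side were DNAJC7 at 0.31 ± 0.086 (edgeR adjusted p = 0.00359), DNAJA3 at 0.29 ± 0.078 (edgeR adjusted p = 0.00286), DNAJA2 at 0.23 ± 0.061 (edgeR adjusted p = 0.00341) and DNAJB1 at 0.19 ± 0.057 (edgeR adjusted p = 0.0112). The calls of DNAJA2, DNAJA3, DNAJB1 and DNAJC6 were each lost under at least 1 alternative. By compartment 9 of 30 cytosolic and 1 of 9 mitochondrial members were called. No ER member was, although 3 of 13 had an unadjusted p below 0.05 with edgeR, and DESeq2 called 0. For HSPA5 the difference was 0.12 with a 95% interval of 0.0092 to 0.23 (edgeR adjusted p = 0.112).

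TRB and EV cells were also compared directly. Without hormone 3 members were higher and 11 lower in TRB cells, together 23.3% of those tested, against 15.3% of all 14549 genes (7.86% higher and 7.4% lower). At 1.5-fold or more 1 member, DNAJC22, was called, against 3.32% of all genes. With T3 11 were higher and 14 lower, together 41.7%, against 40.7% of all genes (21% higher and 19.7% lower). DESeq2 called 6 members higher and 13 lower with T3. At 1.5-fold or more 4 members were called, against 11.3% of all genes. Both comparisons use the TRB libraries that also gave the T3 effect in TRB cells. All 3 HSP90 genes were lower in TRB cells under both treatments. HSP90AB1 differed by -0.18 ± 0.042 with T3 (log2, SE; edgeR adjusted p = 2.52e-04) and -0.23 ± 0.042 with vehicle (edgeR adjusted p = 4.51e-05). HSP90AA1 differed by -0.20 with T3 (edgeR adjusted p = 6.72e-05) and -0.13 with vehicle (edgeR adjusted p = 0.0292), and the call with vehicle was lost without TRB vehicle replicate 3 (edgeR adjusted p = 0.132) or EV vehicle replicate 1 (0.095) or 3 (0.0541). HSP90B1 differed by -0.15 with T3 (edgeR adjusted p = 0.00233) and -0.16 with vehicle (edgeR adjusted p = 0.00309).

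Altogether 7 members were lower in TRB cells under both treatments, namely these 3 with HSPB1, HSPD1, HSPA13 and DNAJC6, and 2 were higher, DNAJC5 and DNAJC10. Of all genes 3.37% were lower and 3.75% higher in both. With vehicle the calls of HSPA13 and DNAJC5 were each lost under 6 alternatives. The edgeR adjusted p of HSPA13 was 0.053 and 0.188 without TRB vehicle replicates 1 and 3 and 0.0791 and 0.0508 without EV vehicle replicates 1 and 2. That of DNAJC5 was 0.0872 and 0.068 without TRB vehicle replicates 1 and 2 and 0.295 without EV vehicle replicate 3. The calls of DNAJC10 were lost without TRB vehicle replicate 2 in the vehicle comparison (edgeR adjusted p = 0.0539) and after thinning in the T3 comparison (edgeR adjusted p = 0.0633). HSPD1 differed by -0.32 ± 0.040 with T3 (edgeR adjusted p = 3.04e-10) and -0.21 ± 0.041 with vehicle (edgeR adjusted p = 6.40e-05). HSPB1 was 3.02-fold lower in TRB cells with T3 (edgeR adjusted p = 1.67e-30) and 1.14-fold lower with vehicle (edgeR adjusted p = 0.0027). HSPA1A and HSPA1B were 1.48-fold and 1.49-fold lower in TRB cells with T3 (edgeR adjusted p = 3.52e-14 and 1.05e-15) and were not called with vehicle (0.571 and 0.0984). Another 5 members were called with vehicle and not with T3. Of these DNAJA1 (-0.20, edgeR adjusted p = 0.00361), DNAJA3 (-0.22, edgeR adjusted p = 0.006), DNAJC7 (-0.20, edgeR adjusted p = 0.0282) and HSPA5 (-0.17, edgeR adjusted p = 0.00101) were lower in TRB cells, and all 4 are members that rose with T3 in TRB cells. Both results use the TRB vehicle libraries, so a low level there enters both and they are not independent. The DNAJC7 call was lost under 8 alternatives. Its adjusted p was 0.0816 with DESeq2, and leaving out TRB vehicle replicate 2 or 3 or any 1 EV vehicle replicate gave an edgeR adjusted p of 0.0571 to 0.0961. That of DNAJA3 was lost after thinning (edgeR adjusted p = 0.115). DNAJC22 was 2.204-fold higher in TRB cells with vehicle, at 3.80 ± 0.893 CPM in TRB cells and 1.702 ± 0.228 CPM in EV cells (SD, n = 3 each; log2 fold change 1.14 ± 0.28 (SE), edgeR adjusted p = 0.00246), a call lost without TRB vehicle replicate 2 (edgeR adjusted p = 0.0591).

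Further members were called in T3 libraries and not in vehicle libraries. The change of the TRB-to-EV difference with T3 is the interaction given above, which of the members named next was called for HSPA2 and DNAJB2. DNAJB9 was 1.32-fold higher in TRB cells (edgeR adjusted p = 2.81e-06), HSPA4L, of the HSP110 family, 1.55-fold (edgeR adjusted p = 1.04e-04) and DNAJC1 1.19-fold (edgeR adjusted p = 0.00247). HSPA2 was 1.71-fold lower (edgeR adjusted p = 4.65e-09), DNAJB2 1.37-fold (edgeR adjusted p = 6.54e-12) and HSPE1 1.16-fold (edgeR adjusted p = 0.0132). The HSPE1 call was lost with DESeq2 (adjusted p = 0.0623), after thinning (edgeR adjusted p = 0.366) and without TRB T3 replicate 2 (0.0621) or EV T3 replicate 2 (0.0731) or 3 (0.0855). The histone chaperone gene DNAJC9 (-0.16, edgeR adjusted p = 0.00955) and the ribosome maturation factor gene DNAJC21 (-0.14, edgeR adjusted p = 0.00741) were slightly lower. Thinning ended both calls (edgeR adjusted p = 0.165 and 0.0821). That of DNAJC9 was also lost when TRB T3 replicate 2 or EV T3 replicate 3 was left out (edgeR adjusted p = 0.0725 and 0.07), and that of DNAJC21 without EV T3 replicate 2 (0.113).

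**Figure D4:**
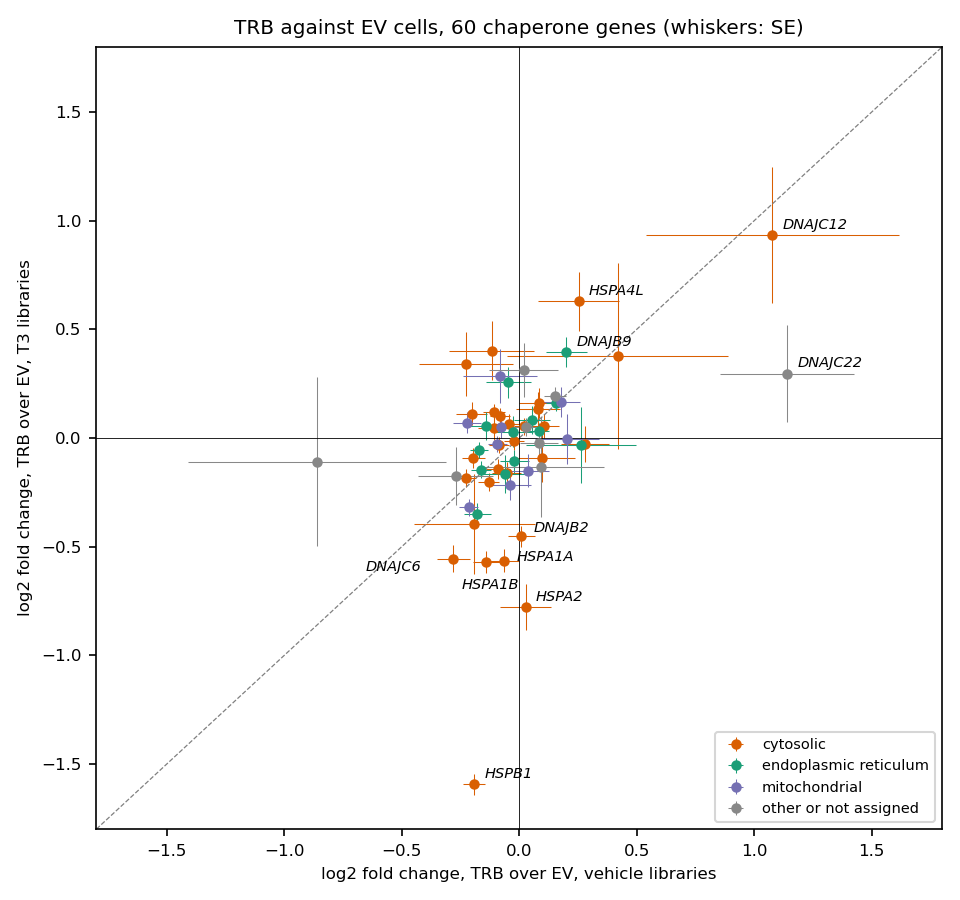
Log2 fold change of TRB over EV cells for the 60 tested members, in vehicle libraries (x axis) and in T3 libraries (y axis), with SE whiskers and colours by compartment; the dashed line marks equal values. HSPB1 lies furthest below the line (-0.19 with vehicle, -1.59 with T3). DNAJC22, to the right, lies below it by -0.84 (edgeR adjusted p = 0.0874, not called), followed by HSPA2, HSPA1A, DNAJB2 and HSPA1B.

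Partner genes outside the symbol rule were taken from 5 lists of the folding machinery. HSF1, the main heat shock transcription factor, had 84.0, 86.9 and 86.8 CPM in TRB cells with T3, 74.4, 78.3 and 75.6 CPM in TRB cells with vehicle, 85.4, 93.4 and 91.3 CPM in EV cells with T3 and 92.6, 93.4 and 94.9 CPM in EV cells with vehicle. It rose with T3 in TRB cells (log2 fold change 0.17 ± 0.051 (SE), edgeR adjusted p = 0.0036) and not by a call in EV cells (log2 fold change -0.058 ± 0.051 (SE), edgeR adjusted p = 0.646). HSBP1, which binds heat shock factors, fell in TRB cells (log2 fold change -0.14 ± 0.048 (SE), edgeR adjusted p = 0.0135), and the other 2 of the 4 tested genes of that list were not called. Of 20 HSP70 and HSP90 cochaperones 4 rose and 4 fell in TRB cells by edgeR, and DESeq2 called 4 higher and 1 lower. ST13 (Hip), which steadies HSP70, fell (log2 fold change -0.34 ± 0.043 (SE), edgeR adjusted p = 3.27e-10), and the exchange factor BAG1 (log2 fold change 0.20 ± 0.047 (SE), edgeR adjusted p = 2.17e-04) and the kinase adaptor CDC37 (log2 fold change 0.16 ± 0.038 (SE), edgeR adjusted p = 4.16e-04) rose. Of 14 genes of the TRiC chaperonin and prefoldin 2 rose and 1 fell, TCP1 (log2 fold change 0.14 ± 0.039 (SE), edgeR adjusted p = 0.00306) and PFDN2 (log2 fold change 0.23 ± 0.080 (SE), edgeR adjusted p = 0.017) upward and VBP1 (log2 fold change -0.19 ± 0.051 (SE), edgeR adjusted p = 0.00146) downward.

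Of 23 tested genes of ER folding and the unfolded protein response 6 rose and 6 fell with T3 in TRB cells. HERPUD1, an ER-associated degradation factor, had 120.3, 121 and 127 CPM in TRB cells with T3, 72.8, 73.2 and 67.1 CPM in TRB cells with vehicle, 78.1, 75.6 and 69.4 CPM in EV cells with T3 and 65.0, 72.0 and 68.3 CPM in EV cells with vehicle. Its TRB libraries with T3 stood above all others (log2 fold change 0.79 ± 0.051 (SE), edgeR adjusted p = 5.01e-22). The oxidase gene ERO1B rose at a low level, 7.77 ± 1.27 CPM with T3 and 3.06 ± 0.268 CPM with vehicle in TRB cells (SD, n = 3 each; log2 fold change 1.34 ± 0.19 (SE), edgeR adjusted p = 7.21e-09), as did the ubiquitin ligase gene SYVN1 (log2 fold change 0.26 ± 0.046 (SE), edgeR adjusted p = 1.86e-06), whereas XBP1, a transcription factor of that response, fell (log2 fold change -0.21 ± 0.038 (SE), edgeR adjusted p = 4.57e-06). XBP1 stood at 519 to 547 CPM in TRB cells with T3 and 607 to 624 CPM with vehicle. In EV cells it was at 430 to 459 CPM with T3 and 427 to 449 CPM with vehicle. Every TRB library was thus above every EV library for XBP1. Of 14 genes of mitochondrial protein quality control 5 rose and 0 fell, among them the proteases AFG3L2 (log2 fold change 0.22 ± 0.041 (SE), edgeR adjusted p = 5.31e-06), LONP1 (log2 fold change 0.22 ± 0.050 (SE), edgeR adjusted p = 2.26e-04) and SPG7 (log2 fold change 0.29 ± 0.063 (SE), edgeR adjusted p = 5.80e-04). With T3 in TRB cells DESeq2 called 5 higher and 4 lower of the ER list and 3 higher and 0 lower of the mitochondrial list. Of TRiC and prefoldin it called 1 higher and 1 lower. For each of these lists the share called can be set beside the 44.4% of all genes, and the share higher beside 22.4%. In EV cells no gene of the 5 lists was called by edgeR or DESeq2, with an unadjusted edgeR p below 0.05 for 3 of the ER list, 2 of the cochaperones, 2 of TRiC and prefoldin and 0 of the other 2 lists.

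The 16 members that did not pass the filter were at or near 0. Of these 10 had no count in any library, and none had more than 45 counts over all 12. HSPA6, the strictly heat-inducible HSP70 gene, had 2 counts over the 3 libraries of TRB cells with T3, 0 with vehicle, 1 in EV cells with T3 and 0 with vehicle. HSPB8, a small heat shock gene of chaperone-assisted autophagy, had 0 counts in TRB cells with T3, 0 with vehicle, 0 in EV cells with T3 and 2 with vehicle. A count of 0 over a group allows up to 0.0863 CPM in TRB cells with T3, 0.126 CPM in TRB cells with vehicle, 0.0891 CPM in EV cells with T3 and 0.163 CPM in EV cells with vehicle, for counting error only. HSPB7 had the most of them, with 6 counts in TRB cells with T3, 8 with vehicle, 18 in EV cells with T3 and 13 with vehicle. The readthrough symbols HSPE1-MOB4, HSPB2-C11orf52 and DNAJC25-GNG10 had no counts.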

How the data were processed

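RNA of 12 libraries, 3 for each of 4 groups, was sequenced from NEBNext Ultra II RNA kit libraries, per the labels' protocols. For each library the authors deposited raw counts, as whole numbers, of 56832 gene symbols. CASAVA 1.7, STAR 2.7, HTSeq 0.10 and DESeq2 were used with build hg38, per the submitters' processing notes; the strand setting and annotation release are not given in the sources used here, which leaves overlapping genes uncertain. Lines that name no gene held 31.87% to 39.24% of the alignments and were left out. edgeR 4.0.16 (limma 3.58.1, R 4.3.3) was run on all genes with filterByExpr (minimum count 10, total 15), TMM, 1 model with a mean for each of the 4 groups (8 residual degrees of freedom) and the robust quasi-likelihood test; p-values were Benjamini-Hochberg adjusted over 14549 genes. DESeq2 1.42.0 was an alternative. The steps were tested on simulated data. CPM are TMM-scaled, CPM per kb use GENCODE exon lengths, and the SE was taken as the ratio of the log2 fold change to the square root of its F statistic. Intervals are at 95%.

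By the rule for named genes, 25 members are named whatever their values, as are the 8 called members of smallest p in each comparison; any other tested member may be named with its log2 fold change and adjusted p, and of the pathway lists the 3 genes of smallest p in each T3 comparison. The members, compartments and lists were chosen with earlier results of these data known. HSP90AA2 and HSPA7 were not among the symbols of the count files. Promoters are RefSeq's (GRCh38.p14).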

Additional observations from a re-analysis of the deposited data

Results flagged for a closer look

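The T3 effect (log2 fold change of T3 over vehicle) of 10 members differed between TRB and EV cells by the interaction test of edgeR, at an adjusted p below 0.05; such a difference was called for 23.9% of all 14549 genes. For 6 members the effect was lower in TRB cells. HSPB1 stood at -1.59 in TRB cells and -0.19 in EV cells, a difference of -1.40 ± 0.068 (SE). HSPA2 stood at -1.05 in TRB cells and -0.25 in EV cells, a difference of -0.80 ± 0.15. For HSPA1A the effects were -0.38 in TRB cells and 0.12 in EV cells (-0.50 ± 0.082), and for its near-identical neighbour HSPA1B they were -0.27 in TRB cells and 0.16 in EV cells (-0.43 ± 0.077). DNAJB2 showed -0.38 in TRB cells and 0.079 in EV cells, a difference of -0.46 ± 0.076. DNAJC6 showed -0.42 in TRB cells and -0.14 in EV cells, a difference of -0.27 ± 0.094. The other 4 had the higher effect in TRB cells. These were DNAJC7 (0.41 in TRB cells and 0.096 in EV cells, difference 0.31 ± 0.086), DNAJA3 (0.30 in TRB cells and 0.0028 in EV cells, difference 0.29 ± 0.078), DNAJA2 (0.31 in TRB cells and 0.082 in EV cells, difference 0.23 ± 0.061) and DNAJB1 (0.28 in TRB cells and 0.095 in EV cells, difference 0.19 ± 0.057). Of these 10 differences 6 kept their call under every alternative run. Those that did not were DNAJA2, DNAJA3, DNAJB1 and DNAJC6. Thinning to equal depth ended the call for DNAJA2 (log2 difference 0.13, edgeR adjusted p = 0.257), DNAJA3 (0.25, edgeR adjusted p = 0.0821) and DNAJC6 (-0.30, edgeR adjusted p = 0.0717). Leaving out TRB T3 replicate 2 ended it for DNAJB1 (edgeR adjusted p = 0.081). For DNAJC6 the edgeR adjusted p was also 0.0618 without TRB T3 replicate 3, 0.105 without TRB vehicle replicate 1, 0.102 without EV T3 replicate 3, and 0.06 and 0.07 without EV vehicle replicates 1 and 3. DESeq2 did not call DNAJC6 either (adjusted p = 0.0862). No group had enough libraries for a test of single outlying libraries. EV vehicle replicate 1 had the fewest counts assigned to genes (4241863) and the highest level of MT-RNR2 (19303 CPM). The depth of T3 and vehicle libraries differed in both lines, and its part in these differences was not tested beyond the thinning.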

How the results depend on the processing

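The counts of called members were recomputed with DESeq2, RLE factors, no filter, another filter (CPM over 1 in at least 3 libraries), fits restricted to the groups compared, thinning to equal depth, offsets for GC content (chosen after seeing the data) and without each library in turn. No call changed direction. Of the members called, 15 of 28 for T3 in TRB cells, 0 of 3 for T3 in EV cells, 15 of 25 for TRB against EV with T3, 7 of 14 with vehicle and 6 of 10 for the difference kept their call under every alternative. Thinning, which leaves fewer counts in every library but 1, left 16 members called for TRB against EV with T3 (9 cytosolic, 1 mitochondrial), 2 mitochondrial members for T3 in TRB cells, 0 for T3 in EV cells (0 cytosolic, 0 mitochondrial), 1 mitochondrial member for TRB against EV with vehicle and 0 mitochondrial members for the difference. For T3 in TRB cells thinning ended the calls of DNAJA4, DNAJB5, DNAJB11, DNAJC2, DNAJC4, DNAJC8, DNAJC11 and DNAJC24. DESeq2 called 22 members for T3 in TRB cells, 19 and 11 for TRB against EV with T3 and with vehicle, and 9 for the difference. It called 1 member for T3 in EV cells (0 mitochondrial) and 1 mitochondrial member for TRB against EV with T3. Not every count under each alternative is listed here. GC offsets gave 1 ER member for T3 in EV cells and 1 for the difference, where the fit without them gave 0. The cause of these moves was not tested.

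Leaving out 1 library at a time gave 23 to 28 called members for T3 in TRB cells (cytosolic 13 to 17, ER 4 to 6, mitochondrial 3 to 5), 1 to 5 for T3 in EV cells (cytosolic 0 to 3, ER 0 to 0, mitochondrial 0 to 1), 20 to 24 for TRB against EV with T3 (cytosolic 13 to 15, ER 5 to 5, mitochondrial 1 to 2), 10 to 15 with vehicle (cytosolic 4 to 7, ER 3 to 4, mitochondrial 2 to 2) and 9 to 13 for the difference (cytosolic 8 to 10, ER 0 to 2, mitochondrial 1 to 2). Counts for T3 in EV cells fell to 1 without EV T3 replicate 2 or 3 or EV vehicle replicate 1 or 3.

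Same-numbered libraries of different groups did not deviate together: 0 of 18 pairs had a correlation of deviations over 0.1 (range -0.12 to 0.083, and -0.055 to 0.14 for different numbers). Such correlations cannot exclude a pairing of small effect, so whether same-numbered libraries were paired is not known. With the replicate number as a block 28, 3, 24, 14 and 10 members were called in the 5 comparisons, where the fit without it called 28, 3, 25, 14 and 10.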
